A study of Ciona robusta with 12 samples.

Results

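The genes described here are 16 of the 15284 gene models measured in the tunicate Ciona robusta, chosen because their transcripts were lower at the 64-cell stage in embryos treated with U0126 and did not meet a stricter limit at the 112-cell stage. U0126 inhibits MEK, the kinase that activates ERK. In the early ascidian embryo FGF signals act through MEK and ERK to induce notochord and neural fates, and Ets-family transcription factors are known targets of ERK in this setting. Between the 64-cell and 112-cell stages these embryos divide further, and many of their own genes become strongly transcribed for the first time.

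Whole embryos in 4 groups of 3 replicates were compared by RNA sequencing. Embryos received U0126, at 4 mM as labelled, or the carrier DMSO at a dilution of 1:1000, in both cases at the 32-cell stage. Collection followed when embryos had 64 or 112 cells. Each library came from a pool of 300 whole embryos grown at one temperature, so fewer cells that express a gene and less of its RNA per cell cannot be told apart. The series text calls the replicates biological, and the labels do not say what a replicate number shares. No untreated group was used here, so the DMSO groups are the background.

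A gene was included when its mean in the DMSO libraries at 64 cells was at least 3 CPM, that is, its reads per 1e6 reads of the library, and its CPM in U0126 embryos was at most 0.75 of that in DMSO embryos in each of the 3 pairs of libraries with the same replicate number. Of the 9363 genes with that mean, 38 met the ratio condition, or 0.406%. Of these, 21 were left out because U0126 was also at most 0.5 of DMSO in all 3 pairs at 112 cells. KH.C4.84 was left out by name. KH.S544.3 and KH.L128.12, also named, were among the 21, and KH.L106.16, the remaining named gene, did not meet the ratio condition. The opposite condition, U0126 at least 4/3 of DMSO in all 3 pairs at 64 cells, was met by 15 genes, none of which was at least 2-fold higher in all 3 pairs at 112 cells.

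Because the members were chosen by their U0126 to DMSO ratios at both stages, those ratios are given as a description and without a test. The genes are known here by their KH2012 identifiers. None of the entries of the reference gene table carries such an identifier, so no gene name, role, sequence or genome position is given, and no list of FGF, MEK and ERK pathway genes or of cell type markers could be matched to the files. CPM is not corrected for gene length, so levels are compared between samples and not between genes.

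The libraries held 10623872 to 15956670 reads over genes. DMSO replicate 3 at 112 cells stood apart, with 210 of 11650 genes 4-fold or more under every other library, a count that was 0 to 4 for each of the other libraries. Without the pair that holds it, the ratio of means at 112 cells moved by more than 0.1 in 6 of the 16 genes, for which both values are given, and by at most 0.0540 in the other 10.

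At 64 cells the 48 pair ratios of the 16 genes ran from 0.290 to 0.746, with a median of 0.569. In 11 of the 16 genes every U0126 library lay under every DMSO library, which was also the case in 2.2% of the genes with at least 3 CPM. The rule fixes much of that count, and nothing is read from it. No member had all 3 ratios at or under 0.5. In the 21 genes left out as low at both stages, the median of the ratios at 64 cells ran from 0.0275 to 0.675 per gene, against 0.421 to 0.731 in the 16 genes.

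**Figure D1:**
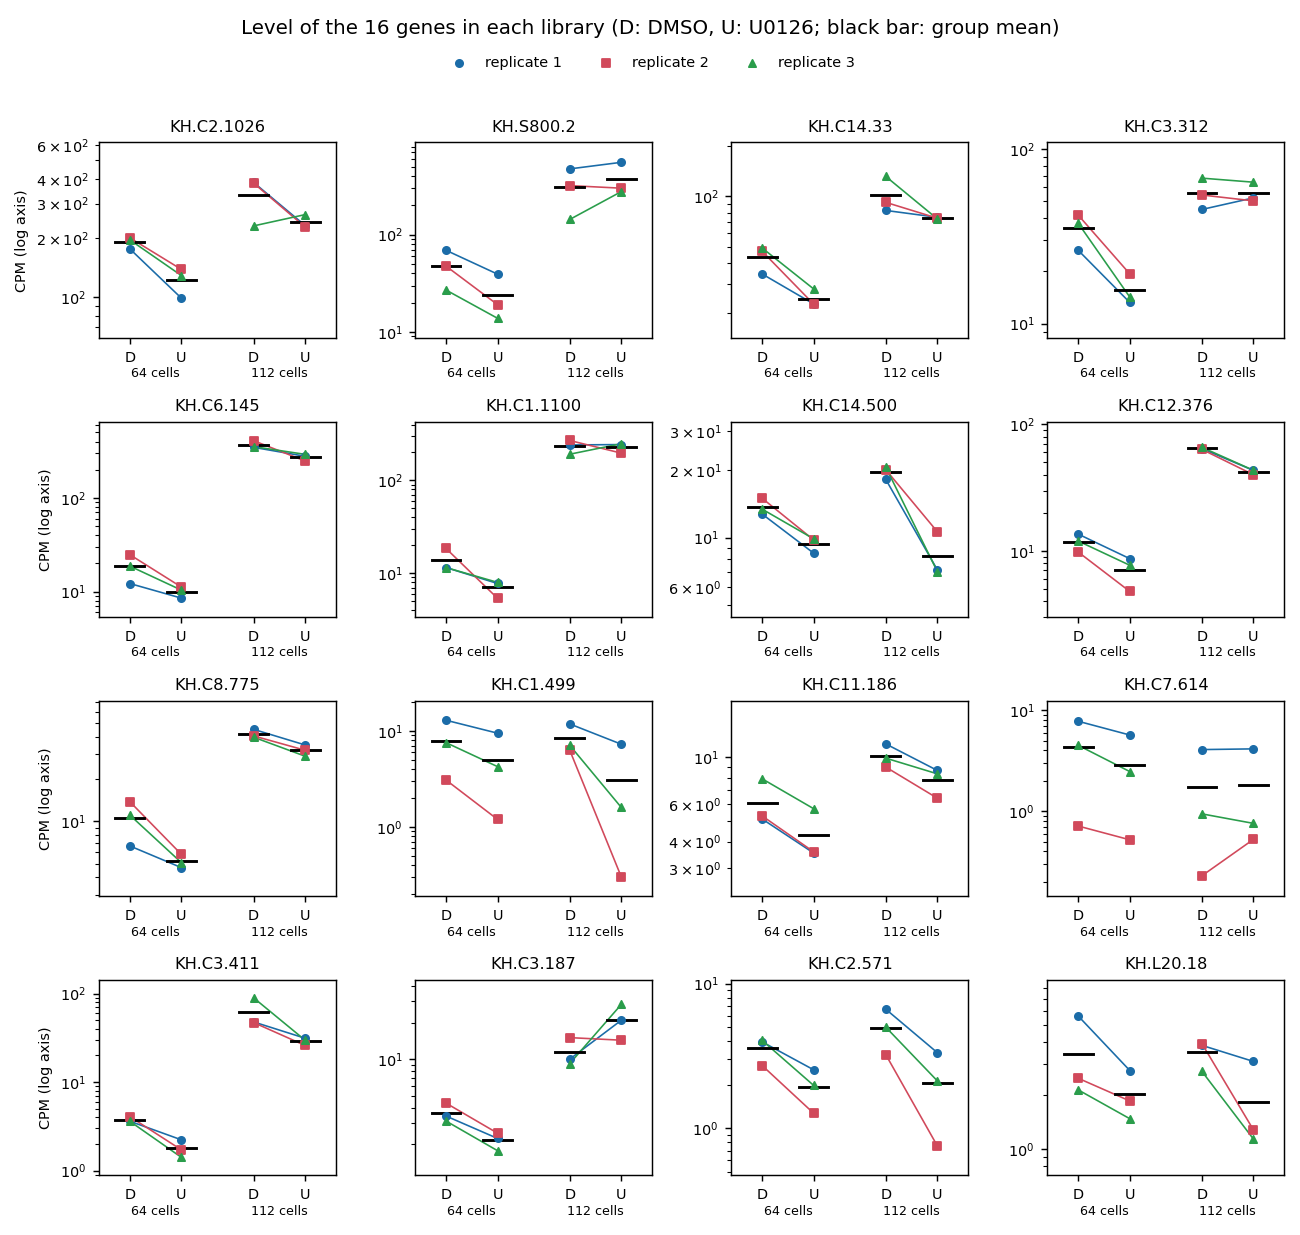
CPM (log axis) of each of the 16 genes in all 12 libraries, with DMSO (D) and U0126 (U) at 64 cells on the left of each panel and at 112 cells on the right; a line joins libraries of the same replicate number and a black bar is the mean of 3 replicates. All lines at 64 cells slope down, as the rule demands, while at 112 cells KH.C3.312 is at 55.7 CPM in both treatments and KH.C14.500 is at 19.6 in DMSO and 8.28 in U0126 embryos.

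KH.C3.312 had the lowest ratio of means at 64 cells. It was at 26.2, 41.7 and 37.4 CPM in DMSO replicates 1, 2 and 3 and at 13.2, 19.2 and 14.2 CPM in the U0126 replicates of the same numbers. All treated libraries lay under all controls, and the ratio of means was 0.442. On the scale of log2(normalized count + 1), on which all fits were made, the U0126 minus DMSO difference was -1.13 (SE 0.24, n = 3 each). The 112-cell libraries held 44.9, 54.4 and 67.9 CPM in DMSO and at 52.3, 50.3 and 64.3 CPM in U0126 embryos. The groups overlapped there, and the ratio of means was 0.999.

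A further 4 genes also had a ratio at 112 cells close to 1 or above it. KH.S800.2 was at 69.1, 47.5 and 27.0 CPM in DMSO and at 39.3, 19.1 and 13.8 CPM in U0126 embryos at 64 cells. In the older embryos it stood at 474, 319 and 143 CPM in DMSO and at 553, 300 and 277 CPM in U0126 embryos. Its replicates spread so widely that the groups overlapped at both stages, although each pair at 64 cells was lower with U0126. Its ratio of means was 0.503 at 64 cells and 1.21 at 112 cells, or 1.08 at 112 cells without the replicate 3 pair.

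KH.C1.1100 was at 11.5, 18.5 and 11.5 CPM in DMSO and at 7.75, 5.36 and 7.97 CPM in U0126 embryos at 64 cells, so that the groups did not overlap. Later, at 112 cells, its levels were 241, 269 and 191 CPM in DMSO and at 243, 197 and 248 CPM in U0126 embryos. The pairs then went in different directions, with ratios of 1.01, 0.731 and 1.30. Its ratio of means was 0.508 at 64 cells and 0.981 at 112 cells, or 0.863 at 112 cells without the replicate 3 pair.

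KH.C3.187 was the member with the highest ratio at 112 cells. It was at 3.41, 4.35 and 3.10 CPM in DMSO and at 2.22, 2.46 and 1.76 CPM in U0126 embryos at 64 cells, or 49 to 61 and 25 to 33 reads. The 112-cell levels were 10.03, 15.1 and 9.22 CPM in DMSO and at 21.0, 14.4 and 28.3 CPM in U0126 embryos. U0126 was thus higher in replicates 1 and 3 and slightly lower in replicate 2, and the groups overlapped. The ratio of means went from 0.594 at 64 cells to 1.85 at 112 cells, or 1.41 without the replicate 3 pair. KH.C7.614, the fifth of these genes, was at 3 to 65 reads in DMSO and 7 to 56 reads in U0126 libraries at 112 cells, and its ratio of means of 1.03 there rests on few reads.

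**Figure D2:**
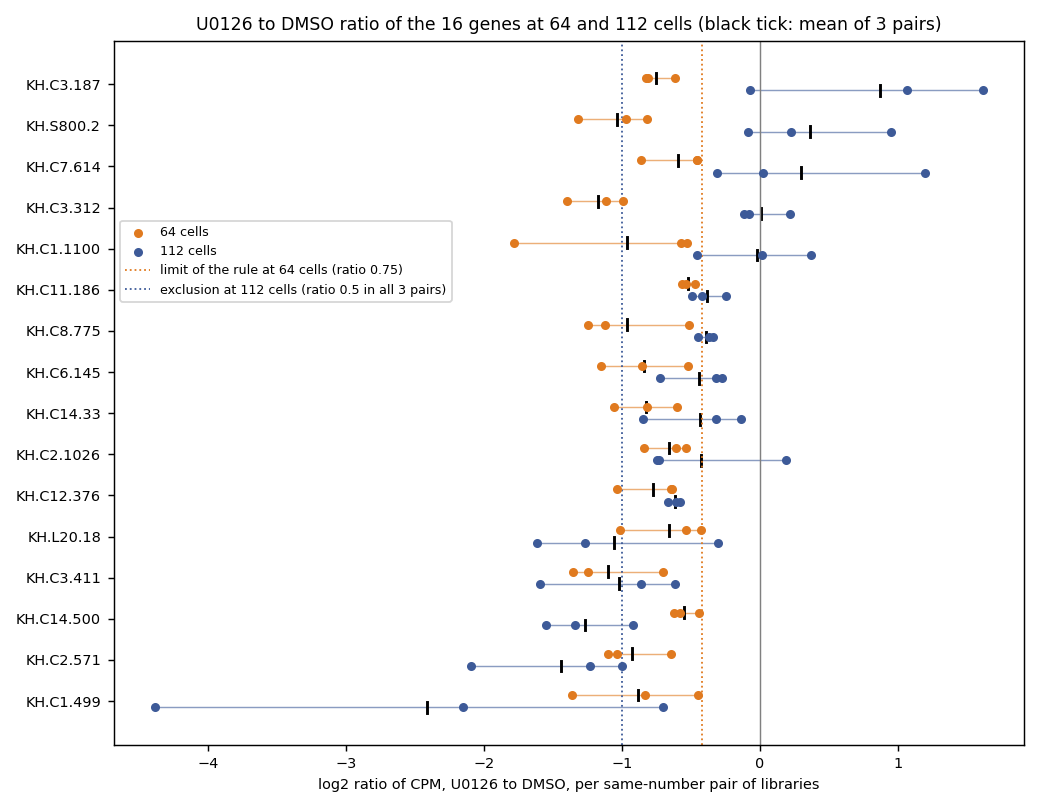
log2 ratio of CPM, U0126 to DMSO, in each same-number pair of libraries at 64 cells (orange) and 112 cells (blue) for the 16 genes, ordered by the ratio of means at 112 cells; black ticks are the means of 3 pairs and dotted lines are the limits of the rule. In KH.C3.187, KH.S800.2, KH.C7.614, KH.C3.312, KH.C1.1100 and KH.C8.775 all ratios at 112 cells lie above all ratios at 64 cells, and in KH.C14.500 all lie below.

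The name under which these genes were grouped, lower mainly at 64 cells, held for some of them only. In 6 of the 16 genes all 3 ratios at 112 cells were above all 3 at 64 cells, and in 1 they were all below. In 10 of the 16 genes U0126 was lower than DMSO in all 3 pairs at 112 cells too, as it was in 40.1% of the genes with at least 3 CPM at 64 cells. In 7 of the 16 every U0126 library at 112 cells lay under every DMSO library, against 17.4% of those genes, and in none of the 16 did every U0126 library lie above, against 5.77%. For the counts of 6 and 1 genes no share over all genes was computed. The rule demanded low ratios at 64 cells, which favours ratios at 112 cells that lie above them. Since it also removed genes by their ratios at 112 cells, these counts are a description only. The counts and shares are in CPM and depend on that scaling. At 112 cells CPM ratios lay under those on the authors' library-size scaling, most of all in pair 3. On the authors' scaling KH.C6.145 and KH.C11.186 were not lower in pair 3. The median U0126 difference at 112 cells on that scaling was -0.0045 over 10704 genes.

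Among the 10 genes lower in CPM in all pairs at both stages, KH.C12.376 changed its CPM ratio very little. It was at 13.6, 9.77 and 11.9 CPM in DMSO and at 8.67, 4.77 and 7.68 CPM in U0126 embryos at 64 cells. In the older embryos it stood at 64.4, 63.5 and 65.9 CPM in DMSO and at 43.2, 40.0 and 43.4 CPM in U0126 embryos. The groups did not overlap at either stage, and the ratio of means was 0.599 and then 0.653. On the authors' scaling the U0126 minus DMSO difference on the log2 scale was -0.73 (SE 0.27) at 64 cells and -0.47 (SE 0.14) at 112 cells. The replicates at 112 cells lay close together, with SDs of 1.22 CPM in DMSO and 1.92 CPM in U0126 embryos.

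In CPM, KH.C6.145 and KH.C8.775 were also lower at both stages without overlap, with ratios nearer to 1 at the later one. On the authors' scaling the groups of both genes overlapped at 112 cells. Their U0126 minus DMSO differences on the log2 scale were -0.30 (SE 0.16) and -0.24 (SE 0.16) there. KH.C6.145 was at 12.2, 24.8 and 18.7 CPM in DMSO and at 8.52, 11.2 and 10.4 CPM in U0126 embryos at 64 cells. Later, at 112 cells, its levels were 347, 409 and 353 CPM in DMSO and at 278, 248 and 292 CPM in U0126 embryos, so its ratio of means went from 0.540 to 0.738. KH.C8.775 was at 10.5 ± 3.58 CPM in DMSO and 5.19 ± 0.574 CPM in U0126 embryos at 64 cells (SD, n = 3 each) and at 41.7 ± 2.92 and 32.0 ± 2.93 CPM at 112 cells. KH.C11.186 was at 5.11 to 7.90 CPM in DMSO and at 3.53 to 5.71 CPM in U0126 embryos at 64 cells, with overlap, and its ratio of means was 0.701 and then 0.770.

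KH.C14.33 and KH.C2.1026 had ratios at 112 cells that turned on replicate 3. KH.C14.33 was at 34.3, 46.9 and 49.0 CPM in DMSO and at 22.6, 22.6 and 27.8 CPM in U0126 embryos at 64 cells. The 112-cell levels were 82.4, 92.1 and 132 CPM in DMSO and at 74.96, 74.0 and 73.3 CPM in U0126 embryos. Its ratio of means at 112 cells was 0.726, or 0.853 without the replicate 3 pair, against 0.561 at 64 cells.

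KH.C2.1026 was at 176, 201 and 196 CPM in DMSO and at 98.7, 138 and 129 CPM in U0126 embryos at 64 cells, again without overlap. In the older embryos it stood at 385, 382 and 231 CPM in DMSO and at 232, 228 and 264 CPM in U0126 embryos. Only the DMSO library that stands apart was as low as the treated libraries. The ratio of means was 0.639 at 64 cells and 0.725 at 112 cells, or 0.599 at 112 cells without the replicate 3 pair, so for this gene that pair decides whether the ratio rises or falls between the stages. KH.C4.84, which was kept out of the group by name, showed the same feature, with 77.8, 88.5 and 82.8 CPM in DMSO and 38.1, 50.6 and 46.5 CPM in U0126 embryos at 64 cells, and 257, 258 and 116 CPM against 180, 167 and 195 CPM at 112 cells.

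In 5 of the 16 genes the ratio of means in CPM was lower at 112 cells than at 64 cells. KH.C14.500 was at 12.7, 14.98 and 13.4 CPM in DMSO and at 8.52, 9.76 and 9.87 CPM in U0126 embryos at 64 cells. Later, at 112 cells, its levels were 18.2, 20.1 and 20.6 CPM in DMSO and at 7.17, 10.6 and 7.05 CPM in U0126 embryos. The groups were separate at both stages and farther apart at the later one, with a ratio of means of 0.685 and then 0.422. The gene stayed in the group because its ratio in pair 2 at 112 cells was 0.529, just over the limit of 0.5.

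KH.C1.499 was at 12.9, 3.07 and 7.52 CPM in DMSO and at 9.44, 1.19 and 4.23 CPM in U0126 embryos at 64 cells. The 112-cell levels were 11.8, 6.29 and 7.06 CPM in DMSO and at 7.24, 0.301 and 1.59 CPM in U0126 embryos, the 0.301 CPM being 4 reads. The groups overlapped at both stages, and replicate 1 was the highest in every group. The ratio of means was 0.633 and then 0.364. Replicate 1 was the pair that kept the gene in the group, with a ratio of 0.615 at 112 cells against 0.0479 and 0.225 in the other pairs.

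KH.C2.571 was at 3.57 ± 0.744 CPM in DMSO and 1.92 ± 0.634 CPM in U0126 embryos at 64 cells, and at 4.95 ± 1.71 and 2.07 ± 1.29 CPM at 112 cells (SD, n = 3 each). Its highest ratio at 112 cells, 0.501, lay next to the limit. KH.L20.18 was at 3.41 ± 1.89 and 2.03 ± 0.658 CPM at 64 cells and at 3.49 ± 0.658 and 1.84 ± 1.10 CPM at 112 cells, and its groups overlapped at both stages. KH.C3.411 was at 3.61, 4.07 and 3.60 CPM in DMSO and at 2.22, 1.71 and 1.41 CPM in U0126 embryos at 64 cells. It was at 47.8, 47.1 and 89.5 CPM in DMSO and at 31.3, 25.9 and 29.7 CPM in U0126 embryos at 112 cells. Its ratio of means in CPM was 0.474 and then 0.471, or 0.603 at 112 cells without the replicate 3 pair. It thus belongs with these 5 genes only in CPM and with the high DMSO library included. On the authors' scaling its log2 difference was -1.03 (SE 0.30) at 64 cells and smaller in size at 112 cells, at -0.88 (SE 0.25).

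Low read numbers limited how well single pairs were measured. The 95% interval of a pair ratio from counting error alone, an exact binomial interval on the reads of the 2 libraries, held 1 in 5 of the 48 pairs at 64 cells. These 5 pairs belonged to 4 genes: KH.L20.18 in replicates 2 and 3, and KH.C11.186, KH.C3.187 and KH.C7.614 in 1 pair each. In KH.C7.614 the pair of replicate 2 rests on 10 reads in DMSO and 7 in U0126 embryos, and its ratio of 0.731 has an interval of 0.236 to 2.13. These intervals cover counting error only, as the reads carry no molecular identifiers.

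The limits of the rule cut through a continuous range. KH.C14.500 and KH.L20.18 were just inside, with highest pair ratios at 64 cells of 0.737 and 0.746, and KH.L63.12 and KH.C1.751 just outside, with 0.762 each. The mean in DMSO at 64 cells was 3.41 CPM for KH.L20.18 and 3.57 CPM for KH.C2.571, the members nearest the limit of 3 CPM, while KH.C3.43 at 2.63 CPM and KH.L20.35 at 2.51 CPM met the ratio conditions but lay under it.

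Over all genes, limma without the replicate number called 2 of 10792 genes lower with U0126 at 64 cells, or 0.0185%, and none of the 16 was among them. With the replicate number as a block it called 71 lower, or 0.658%, among them 12 of the 16. KH.C11.186, KH.C3.187, KH.C7.614 and KH.L20.18 were not called in that fit. The same pairs chose the genes, so the 12 calls repeat the rule and add nothing to it. The median difference at 64 cells was -0.79 in the 16 genes and 0.01 in all 10789 genes tested both at 64 cells and between the stages. At 112 cells limma called 60 of 11315 genes lower, or 0.53%, and 23 higher, or 0.203%. With the block it called 45 lower, or 0.398%, and 4 higher, or 0.0354%. None of the 16 was called there in either fit, where the median difference was -0.29. DESeq2 called 13 genes lower at 64 cells, or 0.12%, with KH.C3.312 among them, and 142 lower at 112 cells, or 1.25%, with KH.C14.500 among them. edgeR called none of the 16 at either stage. These contrasts chose the genes, and nothing is read from the calls.

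The change between the stages was tested as the difference between 112 and 64 cells averaged over the treatments. It uses the same 12 libraries as the ratios that chose the genes, and the limit of 3 CPM in DMSO at 64 cells enters it. The low U0126 levels at 64 cells, which the rule demands, enter it as well and raise the average. The change in DMSO embryos alone is given beside it, but it is not free of the rule either. The ratio condition favours high DMSO levels at 64 cells, which lower that change. The exclusion by ratios at 112 cells enters both contrasts, so their counts and p-values describe chosen genes. The contrast in DMSO embryos alone was added after the data were seen. Stage coincides with the deposited table, so the stage and any batch that goes with the table cannot be told apart. On the average over treatments, 11 of the 16 genes rose from 64 to 112 cells and none fell (limma, Benjamini-Hochberg adjusted p under 0.05 over all 11650 genes tested), while over all genes 8.7% were called higher and 6.68% lower. In DMSO embryos alone 8 of the 16 rose and none fell in the same fit, against 5.38% and 2.21% of all genes. KH.C2.1026, KH.C3.312 and KH.C11.186 were not called there, with log2 differences of 0.74, 0.65 and 0.72 and limma adjusted p-values of 0.0878, 0.118 and 0.164. Without DMSO replicate 3 at 112 cells KH.C2.1026 was called too (limma adjusted p = 0.00292), which made 9 genes against 5.07% higher and 2.37% lower of all genes. With the replicate block 10 of the 16 rose in DMSO alone, KH.C3.312 and KH.C14.500 being added, and KH.C7.614 fell, against 9.9% and 7.57% of all genes. The median stage difference was 1.36 on the log2 scale in the 16 genes and -0.02 in the 10789 genes tested at 64 cells as well.

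KH.C6.145 and KH.C1.1100 had the largest differences of the 16. The log2 difference averaged over treatments was 4.59 for KH.C6.145 (SE 0.17, limma adjusted p = 1.63e-08) and also 4.59 for KH.C1.1100 (SE 0.17, limma adjusted p = 1.63e-08). In DMSO embryos the mean level of KH.C6.145 at 112 cells was 19.9 times that at 64 cells, and in U0126 embryos 27.2 times. For KH.C1.1100 the mean level was 16.9 times higher in DMSO and 32.7 times higher in U0126 embryos. In DMSO alone the log2 differences were 4.34 (SE 0.23, limma adjusted p = 1.20e-06) and 4.07 (SE 0.23, limma adjusted p = 1.42e-06), in that order. The rule had chosen low U0126 levels at 64 cells, so the larger folds with U0126 are a description.

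KH.C3.411 rose by a log2 difference of 3.99 (SE 0.17, limma adjusted p = 3.77e-08) and KH.S800.2 by 3.36 (SE 0.36, limma adjusted p = 6.46e-05). The mean of KH.C3.411 at 112 cells was 16.4 times that at 64 cells in DMSO and 16.2 times in U0126 embryos, with the high DMSO library of replicate 3 included. KH.S800.2 was 6.52 times higher at 112 cells in DMSO and 15.7 times higher in U0126 embryos. KH.C12.376, KH.C3.187 and KH.C8.775 rose by log2 differences of 2.56, 2.45 and 2.35, with limma adjusted p-values of 3.10e-07, 1.30e-05 and 2.69e-06.

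The remaining 4 called genes changed less, with log2 differences of 1.44 for KH.C14.33, 1.28 for KH.C3.312, 0.91 for KH.C2.1026 and 0.84 for KH.C11.186. KH.C11.186 had the highest adjusted p of the 11 (limma, 0.0140, and 0.00191 to 0.0420 over the alternatives). All 11 kept their call under each of the 18 alternatives that average over the treatments, the replicate block and leaving out each library included.

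The 5 genes not called were KH.C7.614, KH.C1.499, KH.C14.500, KH.C2.571 and KH.L20.18. Their stage differences were -1.06 (SE 0.85), -0.43 (SE 0.70), 0.18 (SE 0.13), 0.20 (SE 0.35) and -0.02 (SE 0.32), in that order, with limma adjusted p-values of 0.436 to 0.977. With the replicate block KH.C7.614 was called lower at 112 cells (limma adjusted p = 0.0155, and 0.0155 to 0.689 over its alternatives). In that fit 14.9% of all genes were called higher and 14% lower. The U0126 difference at 112 cells had a median of -1.12 in these 5 genes and -0.24 in the 11 called genes. That contrast shares its libraries with the stage difference and was used by the rule, so the medians are set side by side without a test.

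**Figure D3:**
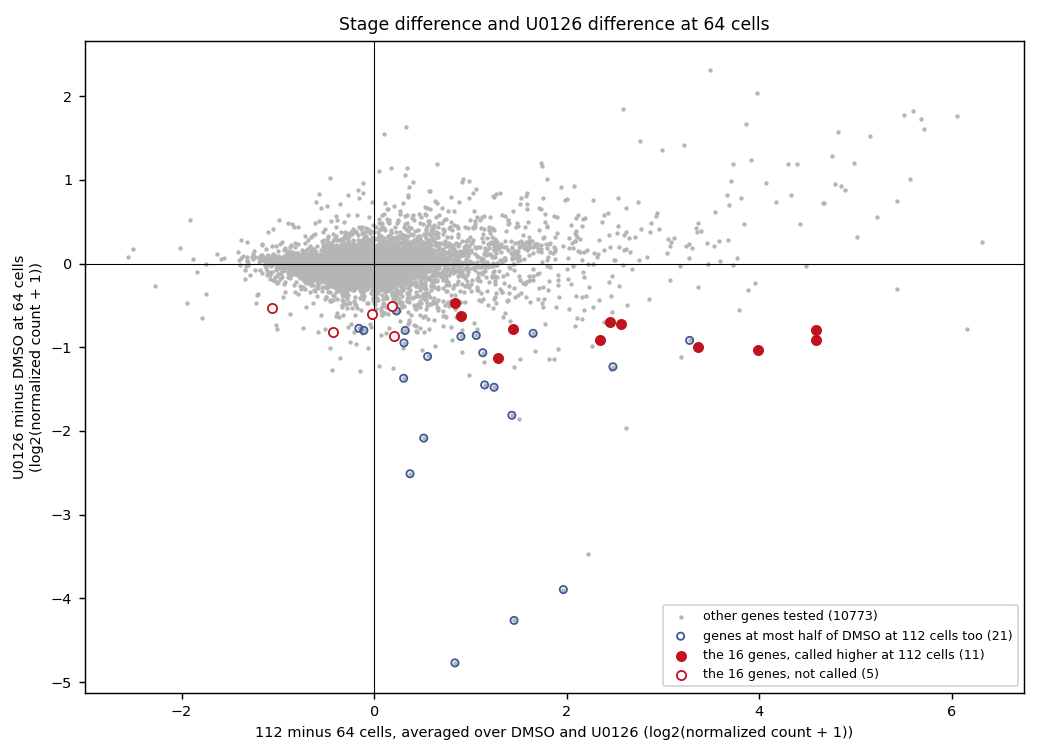
Difference between 112 and 64 cells averaged over DMSO and U0126 (x axis) against the U0126 minus DMSO difference at 64 cells (y axis), both on the scale of log2(normalized count + 1), for the 10789 genes tested in both. The 11 genes called higher on that average (filled red) lie between 0.84 and 4.59 on the x axis and below 0 on the y axis, the 5 not called (open red) lie between -1.06 and 0.20 on it, and blue rings are the 21 genes also low at 112 cells.

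Of the other 22 genes that met the condition at 64 cells, 12 were called higher on the average over treatments and 16 in DMSO embryos alone, beside 11 and 8 of the 16. Whether the members differ from them was not tested. The 21 genes low at both stages had a median stage difference of 0.90, which includes their low U0126 levels at 112 cells.

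The replicate number was the last source of variation examined. The ratios of the rule are taken within a number, so levels that differ between numbers in every group do not enter them. A fit with group and replicate number called 6 of the 16 genes for replicate number (limma moderated F, Benjamini-Hochberg adjusted p under 0.05), while 34.1% of all 11650 genes were called. The share of members is thus close to that of all genes. DMSO replicate 3 at 112 cells weighs on this count. Without it 7311 of 11541 genes were called, in place of 3970 of 11650, and 11 of the 16.

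KH.C7.614 varied most with the replicate number, with F = 50.9 and a limma adjusted p of 2.99e-04. It was at 7.76, 0.713 and 4.49 CPM in DMSO and at 5.68, 0.521 and 2.47 CPM in U0126 embryos at 64 cells, and at 4.07, 0.230 and 0.941 CPM and 4.14, 0.527 and 0.758 CPM at 112 cells. Replicate 1 was the highest and replicate 2 the lowest in all 4 groups. Across the groups the log2 level of replicate 1 lay 3.28 above that of replicate 2, several times the U0126 difference at 64 cells of -0.53 (SE 1.02).

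KH.S800.2 (F = 31.5, limma adjusted p = 0.00110) was highest in replicate 1 and lowest in replicate 3 of all 4 groups. KH.C1.499 (F = 16.4, limma adjusted p = 0.00625) and KH.C2.571 (F = 11.6, limma adjusted p = 0.0148) had replicate 2 as the lowest of all 4 groups. KH.L20.18 and KH.C14.33 followed with limma adjusted p-values of 0.0159 and 0.0437. KH.L20.18 lost its call in 2 of its 16 alternatives, without DMSO replicate 1 at 64 cells (limma adjusted p = 0.0691) or U0126 replicate 1 at 112 cells (0.0646). KH.C14.33 lost it in 10 of 16, with limma adjusted p-values of up to 0.122. For 4 of these 6 genes, KH.C7.614, KH.S800.2, KH.C1.499 and KH.L20.18, the DMSO and U0126 groups overlapped at 64 cells although each pair was lower with U0126.

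**Figure D4:**
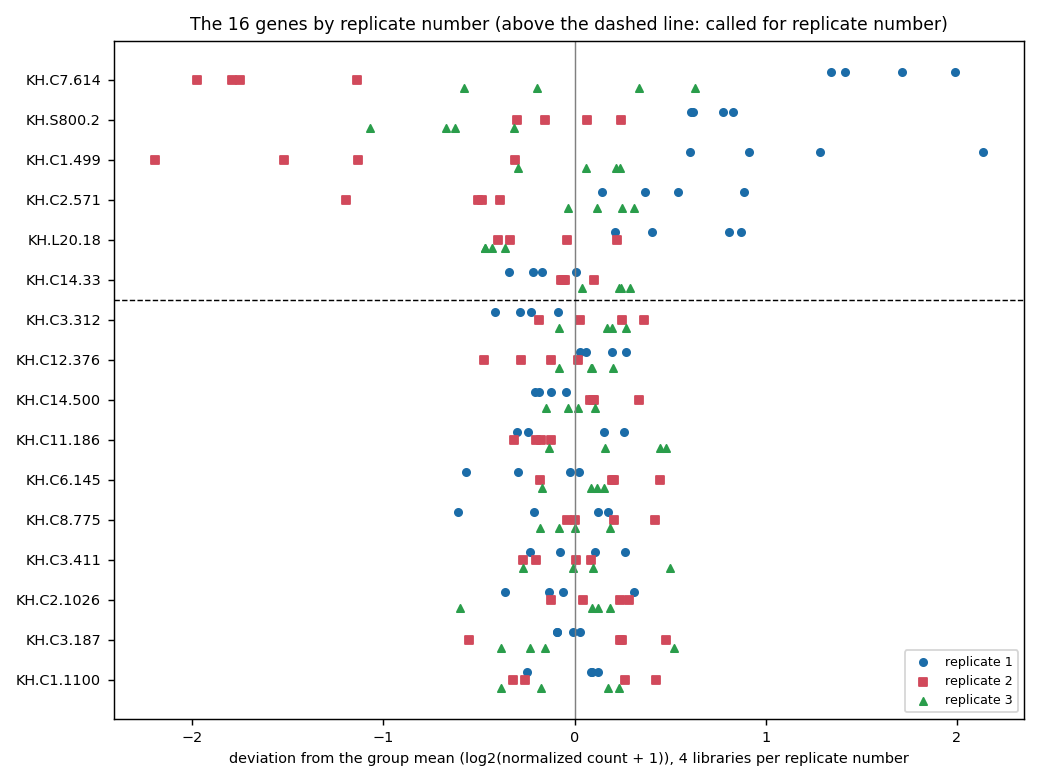
Deviation of each library from its group mean, on the scale of log2(normalized count + 1), for the 16 genes, with 4 libraries for each replicate number, ordered by the adjusted p of the replicate number; genes above the dashed line were called. Replicate 1 lies to the right and replicate 2 to the left in KH.C7.614 and KH.C1.499, while the numbers mix in KH.C1.1100 and KH.C3.187.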

How the data were processed

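RNA of whole embryos was sequenced in 12 libraries. Per the file headers, the authors deposited for each stage library-size-normalized read counts per KH2012 gene model (unit: signal) as well as regularized log2 values, which were not used. The tools named, per the submitters' processing notes, are TopHat2 2.9.8b and DESeq 1.8.1. No source used here gives the counter, its strand setting, filters or the build, so overlapping genes and near-identical copies are uncertain. Within each library 100% of the deposited values were whole multiples of the smallest within 0.01, so reads were recovered, and CPM is reads per 1e6 reads of the library. Each U0126 difference was fitted on the 6 libraries of its stage with the authors' scaling. The stage and replicate number effects used all 12 libraries, rescaled together by median-of-ratios factors. A contrast of the stages within DMSO embryos, from the same fit, was added after the data were seen, also with the replicate block and without DMSO replicate 3 at 112 cells.

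Values of log2(normalized count + 1) were fitted with limma 3.58.1 (R 4.3.3, variance trend on) for genes at 10 or more in at least 3 libraries. All 16 genes passed this filter in every such fit. The limma test fits the normalized values, and edgeR 4.0.16 and DESeq2 1.42.0 on the recovered reads were alternatives. The steps were tested on simulated data. For the stage and U0126 effects these data held no differences between replicate numbers, unlike the real libraries, so they check the steps only. Libraries with the same replicate number deviated together (r across genes 0.451 to 0.833 in the 6 pairs within a stage, 0.380 to 0.790 across stages), so the numbers were taken to pair the libraries, from the data. If replicates did not come from separate clutches, p-values measure technical spread. The members, lists and tests were chosen with earlier results of these data known. Genes named follow a rule by size of difference, level and call, which took in all 16. The comparison of genes by symbol could not be made.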

Additional observations from a re-analysis of the deposited data

How the results depend on the processing

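The number of genes chosen depends on the limits. It was 16 as given, 0 with a ratio limit of 0.5, 7 with 0.67, 9 with at least 10 CPM and 38 without exclusions. It was 33 to 60 when the rule was applied without replicate 1, 2 or 3, which lets genes in on 2 pairs. Without pairing it was 23, of which 11 were among the 16, and with median-of-ratios scaling it was 14, sharing 13. The stage effect called 1792 genes, 3367 with the replicate block, and 1310 to 2126 when each library was left out, with 11 of the 16 called higher each time. For the change in DMSO embryos alone, chosen after seeing the data, it called 884 genes, 859 without DMSO replicate 3 at 112 cells and 2035 with the block. On the average over treatments the block added the call of KH.C7.614 and changed no other member's stage call. The replicate number effect called 2754 to 7311 genes when each library was left out, against 3970. The U0126 effect at 64 cells called 2 genes, 1 with a pseudocount of 8, 1 without the filter, 1 with edgeR, 17 with DESeq2, 146 with the replicate block and 0 to 2 with a library left out. At 112 cells it called 83, 219 with DESeq2, 49 with the block and 16 to 119 with a library left out. None of the 16 genes reversed the direction of a stage call. Over all alternatives for the stage and replicate number effects, calls of the 16 genes were lost 19 times and gained 10 times. Counting error is wide for genes such as KH.C7.614, at 3 to 114 reads a library, and small for KH.C2.1026, at 1286 to 6148 reads. KH.C7.614 also differed between replicate numbers, at similar numbers of reads per library.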
